A study of Mus musculus with 6 samples.

Results

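The annexins and their S100 partners were followed in RNA-seq of mouse LSK cells, the Lin-Sca1+c-Kit+ fraction of bone marrow (BM) that holds hematopoietic stem and progenitor cells (HSPCs). The members were 10 genes chosen by name, the annexins *Anxa1*, *Anxa2*, *Anxa3*, *Anxa4*, *Anxa5*, *Anxa6*, *Anxa7* and *Anxa11* and the S100 genes *S100a10* and *S100a11*, out of 54532 genes in the deposited table. All 10 averaged 1 FPKM or more over the 6 libraries and were among the 11552 genes tested. FPKM is scaled by gene length as well as by library size, so levels can be set side by side between genes.

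The study compared 3 libraries from control mice (CTRL, *Myh9*fl/fl;no cre littermates) with 3 from *Myh9*-deficient mice (cKO, *Myh9*fl/fl;Mx1-cre), all on a C57BL/6 background, to look for RNA changes behind a defect in blood formation. The mice of both groups carried the floxed allele of *Myh9*, which encodes the heavy chain of non-muscle myosin IIA, and both received poly I:C, a synthetic double-stranded RNA, at 5 mg/kg every other day. The sample descriptions give 2 doses and the study's methods 3, at 5 to 6 weeks of age, and 100000 LSK cells were sorted 4 days after the first dose. Control mice lacked the Mx1-cre transgene, which is switched on by interferon, is not limited to blood cells and drives removal of exon 1 of *Myh9*. The study describes 3 independent sets of LSK cells in each group but not how many mice gave each set, so p-values measure the spread between these sets. In bulk RNA, fewer cells of a type and less RNA per cell cannot be told apart.

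Annexins are soluble proteins that bind acidic phospholipids, above all phosphatidylserine, when calcium rises, and so move to the inner face of the plasma membrane and to vesicles. There they link membranes to the actin cortex, to endocytosis and secretion, and to the closing of membrane wounds. S100A10 and S100A11 are small dimeric proteins of the calcium-binding S100 family that hold annexin A2 and annexin A1, respectively, as cross-linked complexes able to bridge membranes. In blood cells annexin A1 is best known as an anti-inflammatory protein of neutrophils and monocytes, and annexin A5 as the probe used to stain dying cells.

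Depth was similar in all libraries, with 17571544 to 19894562 recovered reads in CTRL and 17993534 to 18565266 in cKO LSKs. *Myh9* was at 23.0, 22.6 and 22.0 FPKM in CTRL and at 18.4, 20.0 and 17.7 FPKM in cKO libraries, and it fell by 17.1% of its control mean (log2 fold change -0.26, SE 0.049, adjusted p = 0.00642, limma). With GC and length trends removed, an alternative chosen after seeing the data, the log2 fold change of *Myh9* was -0.16 (adjusted p = 0.0225, limma). These values cover the whole gene and do not separate exon 1 from the others. The label was checked on the genes of the 2 sorted surface proteins. *Kit* was at 23.9 ± 0.454 FPKM in CTRL and 21.5 ± 0.334 FPKM in cKO LSKs (SD, n = 3). *Ly6a*, the gene of Sca1, was at 95.4 ± 1.87 and 89.5 ± 3.63 FPKM. Both were lower in cKO libraries without overlap. *Kit* was called (log2 fold change -0.14, adjusted p = 0.0105, limma) and *Ly6a* was not (adjusted p = 0.0833, limma).

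Most annexin RNAs were lower in *Myh9*-deficient LSKs, by amounts well under 2-fold. *Anxa1*, *Anxa2*, *Anxa3*, *Anxa5*, *Anxa6*, *S100a10* and *S100a11* fell, *Anxa4* rose, and *Anxa7* and *Anxa11* did not pass the test. That made 8 of 10 members called at an adjusted p under 0.05 with limma, 7 lower and 1 higher, where 40.5% of all genes tested were called, 20.6% lower and 19.9% higher. Among the 7169 genes that averaged 5 FPKM or more, 50.6% were called, 24.3% lower and 26.3% higher, and every member except *Anxa4* averaged at least that in both groups. For 9 of 10 members no library of 1 group reached into the range of the other, 7 lower and 2 higher, against 54% of all genes tested, 28.5% lower and 25.5% higher. None of the 10 passed 2-fold with an unadjusted p under 0.05, which 2.13% of all genes tested did. The median log2 fold change of the members was -0.23, beside -0.0096 for all genes tested. Markers of neutrophils and monocytes, cells in which several annexins are abundant, summed to 11096 to 11132 FPKM in CTRL and 6157 to 6265 FPKM in cKO libraries. Most of that sum is RNA of the primary granule genes *Mpo*, *Elane*, *Prtn3* and *Ctsg*, and the part of these markers in the annexin values was not tested.

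**Figure D1:**
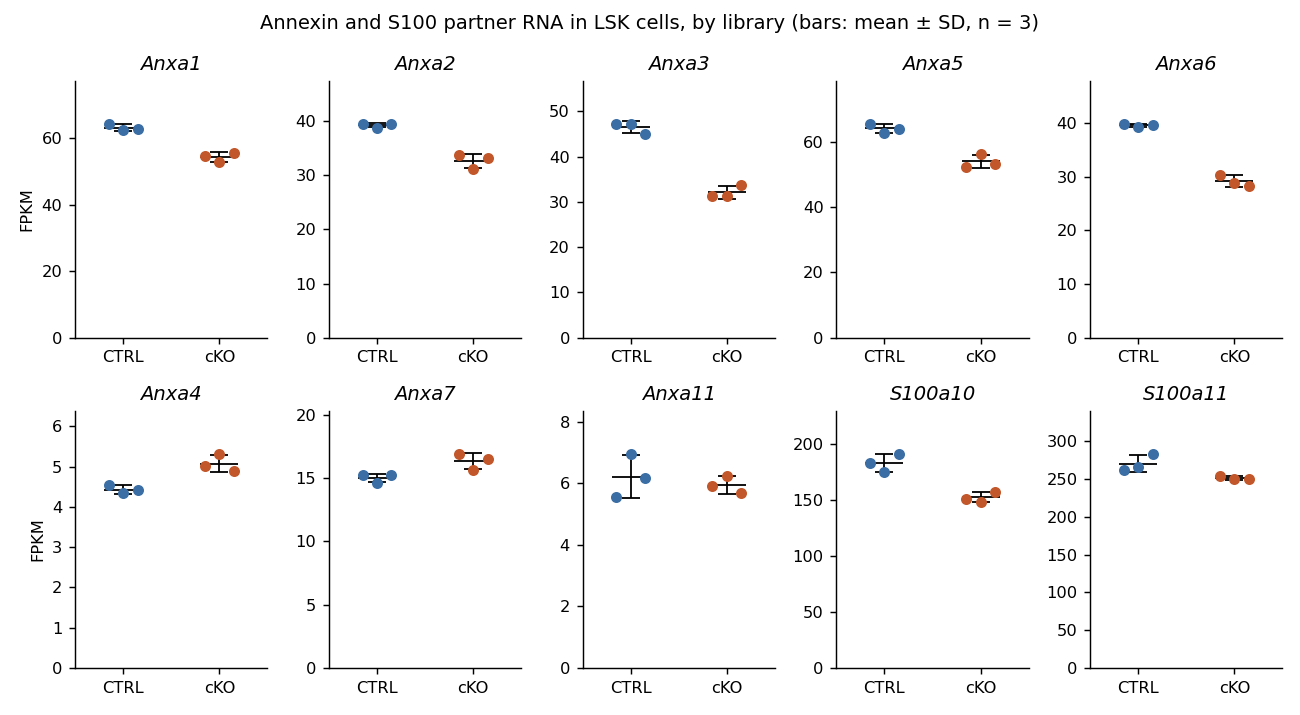
FPKM (vertical axes, from 0) of the 8 annexins and 2 S100 partners in each library of control (CTRL, blue) and *Myh9*-deficient (cKO, orange) LSKs, with bars for mean ± SD over 3 libraries. The orange points lie below the blue ones for 7 genes, above them for *Anxa4* and *Anxa7*, and among them for *Anxa11*.

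Promoter sequence was examined because most of the members moved in the same direction. RefSeq windows (GRCm38.p6) covering 250 bases before a start site were found for 7 of the members and not for *Anxa3*, *Anxa6* and *S100a10*. Shown here, 5′ to 3′ on the gene's strand, are the windows of 2 members that fell and were the only ones of those 7 with an AP-1 match, and of *Anxa4*, which rose. Bases that lie inside the gene as deposited were left off. Capitals mark matches to the motifs searched on both strands.
Anxa2: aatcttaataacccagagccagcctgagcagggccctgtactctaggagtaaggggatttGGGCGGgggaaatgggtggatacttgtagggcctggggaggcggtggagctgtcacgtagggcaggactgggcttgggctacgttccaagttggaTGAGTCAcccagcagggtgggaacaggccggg
S100a11: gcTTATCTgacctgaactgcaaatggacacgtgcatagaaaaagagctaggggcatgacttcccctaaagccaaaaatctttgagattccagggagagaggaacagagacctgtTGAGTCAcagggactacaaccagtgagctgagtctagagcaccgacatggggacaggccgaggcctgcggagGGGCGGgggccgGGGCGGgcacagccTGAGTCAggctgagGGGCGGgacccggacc
Anxa4: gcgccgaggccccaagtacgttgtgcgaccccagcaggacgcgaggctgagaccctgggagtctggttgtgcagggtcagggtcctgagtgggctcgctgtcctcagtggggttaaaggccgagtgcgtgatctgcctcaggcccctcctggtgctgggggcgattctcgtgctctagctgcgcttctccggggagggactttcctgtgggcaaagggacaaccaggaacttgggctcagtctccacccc

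The *Anxa2* stretch is chr9:69453433-69453619 on the plus strand, the *S100a11* stretch chr3:93520246-93520487 on the plus strand, and the *Anxa4* stretch chr6:86793585-86793834 on the minus strand. The AP-1 letters TGANTCA began 95 bases before the RefSeq start of *Anxa2*, and 136 and 38 bases before that of *S100a11*. They were in 6.75% of 32851 windows of all genes. The GC box GGGCGG, present in 32.7% of all windows, occurred 3 times in each of those windows, although only 1 copy of *Anxa2* falls in the stretch shown. It also occurred in the windows of *Anxa7* and *Anxa11*, which were not called, and not in that of *Anxa1*, which fell. The GATA letters AGATAA (9.99% of all windows) matched 248 bases before the start of *S100a11*. A second RefSeq window of *Anxa4*, inside the gene as deposited and so not shown, held GATA letters 43 bases before its start. The *Anxa4* window next to the deposited start held no match to AP-1, the GC box, GATA, CRE (TGACGTCA, 1.55% of all windows), RUNX (TGTGGT, 14.1%), PU.1 (GAGGAAGT, 2.44%), the TATA box (TATAAA, 12.4%) or the CArG box (1.47%). The *Anxa5* window held none of these letters either, although *Anxa5* fell. A TATA box began 32 bases before the start in *Anxa1* and 17 bases before it in *Anxa2*. These matches are letters in a window and no measure of binding.

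The largest decrease was in *Anxa3* (ENSMUSG00000029484, chromosome 5 from 96793339 to 96845966, plus strand of mm10). Annexin A3 is abundant in neutrophils, where it is found on granules. Its RNA was at 47.2, 47.3 and 45.0 FPKM in CTRL and at 31.2, 31.4 and 33.7 FPKM in cKO libraries. The highest cKO library lay far below the lowest CTRL library. The mean went from 46.5 ± 1.29 to 32.1 ± 1.38 FPKM (SD, n = 3), and the RNA fell by 31.0% (log2 fold change -0.52, SE 0.040, adjusted p = 0.000165, limma on log2(FPKM + 1)).

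*Anxa6* (ENSMUSG00000018340, chromosome 11 from 54979108 to 55033445, minus strand) showed the next largest decrease. Annexin A6 carries a duplicated annexin core and works in endocytosis, cholesterol transport and the actin cortex. Control libraries held 39.8, 39.3 and 39.5 FPKM and *Myh9*-deficient libraries 30.4, 28.8 and 28.2 FPKM. The control libraries were the tightest of any member, with a coefficient of variation of 0.683%, and the groups were well separated. *Anxa6* fell by 26.3% (log2 fold change -0.43, SE 0.034, adjusted p = 0.000197, limma).

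*Anxa1*, *Anxa2* and *Anxa5* fell by similar amounts. *Anxa1* (ENSMUSG00000024659, chromosome 19 from 20373428 to 20390944, minus strand) encodes the ligand of formyl peptide receptors. It was at 64.3, 62.6 and 62.6 FPKM in CTRL and 54.7, 52.7 and 55.5 FPKM in cKO libraries. All *Myh9*-deficient values were below all control values, and the mean fell by 13.99% (log2 fold change -0.21, SE 0.030, adjusted p = 0.00192, limma).

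*Anxa2* (ENSMUSG00000032231, chromosome 9 from 69453620 to 69491795, plus strand) encodes the annexin that binds plasminogen and tissue plasminogen activator at the cell surface together with S100A10. Its levels were 39.4, 38.7 and 39.5 FPKM in CTRL and 33.7, 31.1 and 33.1 FPKM in cKO libraries. The groups did not overlap, with a fall of 16.7% (log2 fold change -0.26, SE 0.036, adjusted p = 0.00195, limma).

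*Anxa5* (ENSMUSG00000027712, chromosome 3 from 36448923 to 36475894, minus strand) encodes the annexin that forms lattices on phosphatidylserine. Control libraries held 65.6, 62.9 and 64.0 FPKM and *Myh9*-deficient libraries 52.5, 56.3 and 53.3 FPKM. The groups were apart by more than their spread, and the mean fell by 15.8% (log2 fold change -0.24, SE 0.035, adjusted p = 0.00214, limma). The start of *Anxa5* lies 42 bases from that of *1810062G17Rik*, read in the opposite direction, which had at most 13 reads in a library against at least 1747 for *Anxa5*.

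The S100 partners had the highest levels of the 10 members. *S100a10* (ENSMUSG00000041959, chromosome 3 from 93555080 to 93564643, plus strand) encodes the partner of annexin A2, also called p11. It was at 183, 176 and 191 FPKM in CTRL and at 152, 149 and 158 FPKM in cKO libraries. Every *Myh9*-deficient library was below every control library, and the mean went from 183 ± 7.86 to 153 ± 4.59 FPKM (SD, n = 3). *S100a10* fell by 16.7% (log2 fold change -0.26, SE 0.039, adjusted p = 0.0025, limma).

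*S100a11* (ENSMUSG00000027907, chromosome 3 from 93520488 to 93526287, plus strand) encodes the partner of annexin A1 and lies 28792 bases before *S100a10* on the same strand. Its levels were 263, 266 and 283 FPKM in CTRL and 254, 250.2 and 251 FPKM in cKO libraries. The groups did not overlap, but the gap was narrow and the control library at 283 FPKM stood above the others. The mean fell by 6.90% (log2 fold change -0.10, SE 0.033, adjusted p = 0.0477, limma). The call was lost when any 1 of the 6 libraries was left out, with adjusted p from 0.0519 without CTRL replicate 1 to 0.112 without cKO replicate 3. Without CTRL replicate 3 the log2 fold change of *S100a11* was -0.068, and with GC and length trends removed it was -0.22 (adjusted p = 0.00188, limma). It also passed with TPM (adjusted p = 0.0115) and with quantile normalization (adjusted p = 0.00540). A processed copy, *S100a11-ps*, is listed at 0 in all libraries.

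*Anxa4* rose from the lowest level of the 10. *Anxa4* (ENSMUSG00000029994, chromosome 6 from 86736840 to 86793584, minus strand) encodes an annexin known from secretory epithelia. Its levels were 4.55, 4.34 and 4.41 FPKM in CTRL and 5.02, 5.31 and 4.89 FPKM in cKO libraries, on 355 to 450 reads. The *Myh9*-deficient libraries were all above the control libraries, and the mean rose by 14.6% (log2 fold change 0.16, SE 0.048, adjusted p = 0.0350, limma). The call was lost without CTRL replicate 1, 2 or 3 and without cKO replicate 1 or 2, with adjusted p from 0.0655 to 0.102. It was also lost with the replicate number as a block (adjusted p = 0.0810), as was that of *S100a11* (adjusted p = 0.0740). The antisense lincRNA *Gm44036* overlaps *Anxa4* by 226 bases, with at most 12 reads in a library.

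*Anxa7* and *Anxa11* are the annexins with long amino-terminal tails, and bind sorcin and ALG-2 (PDCD6), respectively. *Anxa7* (ENSMUSG00000021814, chromosome 14 from 20455260 to 20480133, minus strand) was at 15.2, 14.6 and 15.2 FPKM in CTRL and at 16.9, 15.6 and 16.5 FPKM in cKO libraries. These did not overlap, but the difference missed the threshold (8.83% above the control mean, log2 fold change 0.11, SE 0.040, adjusted p = 0.0604, limma). Without cKO replicate 2, the lowest of its group, the adjusted p was 0.0343 and the log2 fold change 0.14.

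*Anxa11* (ENSMUSG00000021866, chromosome 14 from 25842156 to 25886804, plus strand) was at 5.55, 6.96 and 6.17 FPKM in CTRL and at 5.91, 6.25 and 5.69 FPKM in cKO libraries. The groups overlapped, and control libraries had the widest spread of any member, with a coefficient of variation of 11.4%. The log2 fold change was -0.052 (SE 0.077, adjusted p = 0.628, limma), and 0.020 without CTRL replicate 2, the highest library. An antisense gene within the locus, *Anxa11os*, had at most 4 reads in a library against at least 438 for *Anxa11*.

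**Figure D2:**
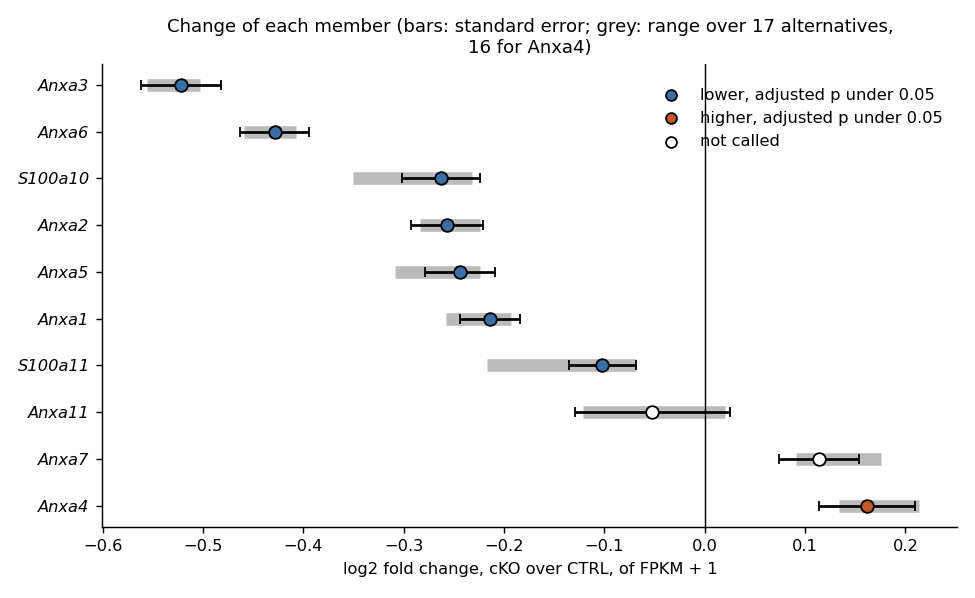
Log2 fold change of FPKM + 1, *Myh9*-deficient over control, for each member (horizontal axis), with its standard error (black bars) and the range over alternative analyses (grey). *Anxa3* at -0.52 and *Anxa6* at -0.43 lie furthest from 0, and the grey range of *Anxa11* alone crosses 0.

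By level, the members in control LSKs ran in the order *S100a11*, *S100a10*, *Anxa5*, *Anxa1*, *Anxa3*, *Anxa6*, *Anxa2*, *Anxa7*, *Anxa11* and *Anxa4*, on the FPKM scale. The libraries of *Anxa5* and *Anxa1* overlapped, as did those of *Anxa6* and *Anxa2*, and all other neighbours in this order were apart. In *Myh9*-deficient LSKs *Anxa3* and *Anxa6* had moved below *Anxa2*. There *Anxa1* and *Anxa5* overlapped, *Anxa2* and *Anxa3* overlapped, and all other neighbours were apart.

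The balance of each annexin with its S100 partner was compared as a ratio within each library, which does not depend on library scaling. The ratio of *S100a10* to *Anxa2* in FPKM was 4.65, 4.54 and 4.85 in CTRL and 4.50, 4.78 and 4.76 in cKO libraries. The groups overlapped, and each of the 2 RNAs had fallen by 16.7%. The difference in log2 ratio was 0.00018 (SE 0.040, exact permutation p = 1, two-sided), and differences between single libraries ran from -0.11 to 0.076.

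The ratio of *S100a11* to *Anxa1* was 4.09, 4.24 and 4.53 in CTRL and 4.65, 4.75 and 4.52 in cKO libraries. The *Myh9*-deficient libraries tended to the higher side, but the lowest of them fell just under the highest control library. The difference in log2 ratio was 0.12 (SE 0.048, exact permutation p = 0.2, two-sided), and 3 libraries against 3 cannot go below p = 0.1.

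Summed over the 8 annexins, the level was 282, 277 and 276 FPKM in CTRL and 230.3, 228 and 231 FPKM in cKO libraries. The groups were far apart, 278 ± 2.92 against 230 ± 1.84 FPKM (SD, n = 3), with a difference of -48.6 FPKM (SE 1.99, exact permutation p = 0.1, the smallest possible). *Anxa3* made up 16.7% ± 0.406 of this sum in control and 13.97% ± 0.539 in *Myh9*-deficient LSKs, and *Anxa6* 14.2% ± 0.0807 and 12.7% ± 0.482. A share also moves with the sum it is taken of, and that of *Anxa1*, whose RNA fell, was 22.7% ± 0.117 in CTRL and 23.7% ± 0.445 in cKO libraries, without overlap. The share of *Anxa7*, whose RNA was not called, went from 5.40% ± 0.108 to 7.11% ± 0.236 and that of *Anxa4* from 1.59% ± 0.0236 to 2.21% ± 0.112, each without overlap between groups (exact permutation p = 0.1, two-sided, n = 3). *Anxa2* held 14.1% and 14.2% and *Anxa5* 23.1% and 23.5%, with overlap between the groups (exact permutation p = 0.6 and 0.8, n = 3).

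**Figure D3:**
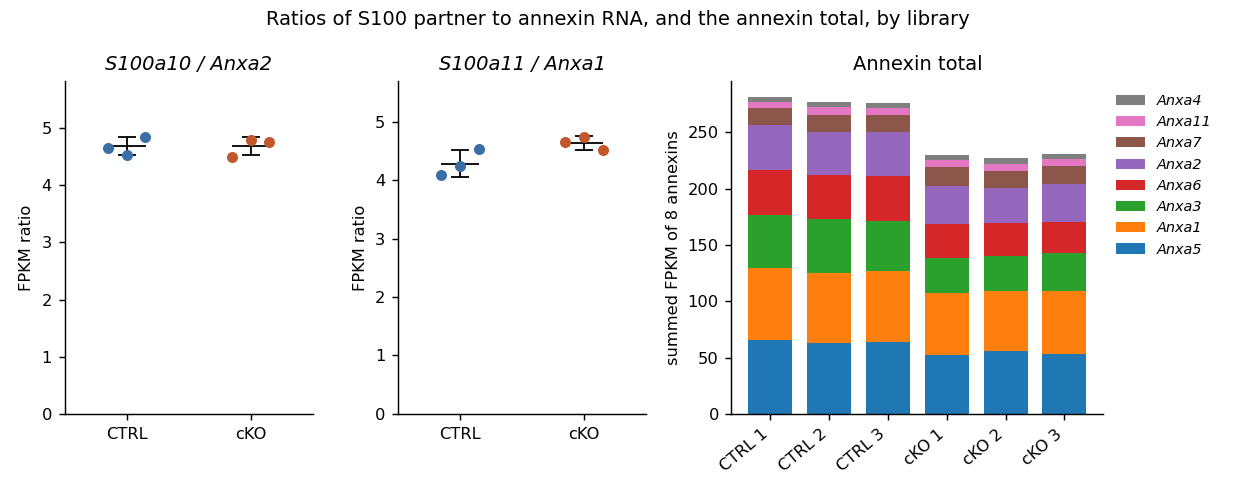
FPKM ratios of *S100a10* to *Anxa2* and of *S100a11* to *Anxa1* by library (left and middle, bars for mean ± SD over 3 libraries), and the summed FPKM of the 8 annexins with each gene's part (right). The first ratio overlaps between groups, and the annexin total is 276 to 282 FPKM in CTRL and 228 to 231 FPKM in cKO libraries.

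Of 4 further annexins, only *Anxa9* was tested. *Anxa8* and *Anxa10* are listed at 0 in all libraries, and *Anxa13* did not exceed 0.0396 FPKM. *Anxa9* rose from 4.36 ± 0.519 to 7.61 ± 0.155 FPKM (SD, n = 3, log2 change of 0.69, with adjusted p = 0.000697, limma). Annexin A9 is an atypical family member whose calcium-binding sites are changed. *Anxa9* overlaps *Mindy1* by 71 bases on the other strand and *6330562C20Rik* by 101 bases on its own. *6330562C20Rik* was at 1.58 to 2.25 FPKM in CTRL and 3.36 to 3.96 FPKM in cKO libraries. The part of shared reads was not tested.

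Of 14 further S100 genes, 5 were tested, of which 1 rose and 2 fell. *S100a6*, whose product calcyclin binds several annexins, stood at 9.23, 7.60 and 8.77 FPKM in CTRL and at 15.9, 15.2 and 16.6 FPKM in cKO libraries. The groups were wide apart, and its increase (log2 fold change 0.83, SE 0.071, adjusted p = 0.000263, limma) was opposite in direction to the decrease of *S100a10* and *S100a11*. *S100a4*, whose product binds the tail of non-muscle myosin IIA, did not exceed 0.291 FPKM and was not tested. *S100a1* fell from 60.5 ± 1.90 to 51.9 ± 0.387 FPKM (adjusted p = 0.00198, limma), and its start lies 42 bases from that of *S100a13*, read the other way (log2 fold change -0.11, adjusted p = 0.132). Of the neutrophil calprotectin genes, *S100a9* fell from 114 ± 6.70 to 101 ± 4.49 FPKM (adjusted p = 0.0296), and *S100a8* was at 67.8 ± 2.28 and 67.3 ± 9.18 FPKM (adjusted p = 0.885).

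Of 15 genes of annexin binding proteins, 8 were tested, 4 rose and 0 fell, with a median log2 fold change of 0.085. *Plgrkt*, which encodes a plasminogen receptor, rose from 16.4 ± 0.712 to 20.1 ± 0.667 FPKM (log2 change of 0.27, with adjusted p = 0.00330, limma). *Pdcd6*, which encodes ALG-2, the calcium sensor that binds annexins A7 and A11, rose from 31.7 ± 0.967 to 38.1 ± 1.15 FPKM (log2 change of 0.26, with adjusted p = 0.00202). *Pla2g4a*, the gene of the cytosolic phospholipase that annexin A1 restrains, rose from 7.29 ± 0.200 to 8.84 ± 0.320 FPKM (log2 change of 0.25, with adjusted p = 0.00478). The formyl peptide receptor genes *Fpr1*, *Fpr2* and *Fpr3*, the plasminogen gene *Plg* and *Ahnak*, whose product binds the annexin A2 complex, were under the mean of 1 FPKM and were not tested.

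Of 21 genes of plasma membrane repair, 15 were tested, 2 rose and 4 fell (median log2 fold change -0.031). *Ehd4*, which encodes a membrane-shaping ATPase of endosomes, fell from 19.3 ± 0.209 to 13.1 ± 0.0810 FPKM (log2 change of -0.53, with adjusted p = 4.74e-05, limma). *Pdcd6ip*, the gene of the ESCRT adaptor ALIX that ALG-2 binds, fell from 16.1 ± 0.545 to 13.2 ± 0.380 FPKM (log2 change of -0.27, with adjusted p = 0.00249). *Capn1*, the gene of the calcium-dependent protease calpain, fell from 29.0 ± 0.866 to 25.9 ± 0.639 FPKM (log2 change of -0.15, with adjusted p = 0.0132). The rises were in *Pdcd6* and in *Ehd1*, a relative of *Ehd4* (log2 fold change 0.23, with adjusted p = 0.0126).

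Of 13 genes whose products move phosphatidylserine, the lipid annexins bind, across membranes, 9 were tested, 1 rose and 1 fell (median log2 fold change -0.12). *Plscr1*, an interferon-inducible scramblase family gene, rose from 27.5 ± 0.831 to 35.9 ± 2.57 FPKM (log2 change of 0.37, with adjusted p = 0.00246, limma). *Atp11a*, the gene of a flippase, fell from 1.98 ± 0.103 to 1.51 ± 0.183 FPKM (log2 change of -0.25, with adjusted p = 0.0407).

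Copines and other proteins with calcium-dependent C2 domains were listed as a second kind of membrane binder. Of 12 genes, 6 were tested, 1 rose and 2 fell (median log2 fold change -0.040). *Cpne3* fell from 6.50 ± 0.275 to 4.52 ± 0.340 FPKM (log2 change of -0.44, with adjusted p = 0.00171, limma), and *Esyt1*, a tether between the endoplasmic reticulum and the plasma membrane, fell from 28.9 ± 0.666 to 24.2 ± 0.545 FPKM (log2 change of -0.25, with adjusted p = 0.00162). *Cpne2* rose from 37.3 ± 0.495 to 41.6 ± 0.805 FPKM (log2 change of 0.15, with adjusted p = 0.00604). Over these lists together, 18 of 42 genes tested were called, 9 higher and 9 lower, beside the 40.5% called among all genes tested.

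Markers of other cells moved between the groups as well, and annexins are expressed in many of these cells. Of 18 neutrophil and monocyte markers, 16 were tested, 13 fell and 1 rose (median log2 fold change -0.65). *Mpo* fell from 3331 to 1953 FPKM, *Elane* from 3096 to 1346, *Prtn3* from 2008 to 1046 and *Ctsg* from 1785 to 1367 FPKM. In the same list *Cd14* went from 21.2 to 3.67 FPKM, *Csf1r* from 25.6 to 8.70 and *Ly6c2* from 361 to 131 FPKM. Genes of more mature neutrophils were mixed. *Ltf* fell from 5.96 to 3.39 FPKM, *Camp* from 23.3 to 14.8, *Ngp* from 33.0 to 25.5 and *Cxcr2* from 3.93 to 2.45 FPKM. *S100a8* was at 67.8 and 67.3 FPKM and *Mmp8* at 1.62 and 1.88 FPKM (adjusted p = 0.173, limma). *Mmp9* was higher (0.969 and 1.67 FPKM, adjusted p = 0.0109, limma). The defining markers *Itgam*, *Ly6g*, *S100a8* and *Csf1r* were at 0.214 to 75.9 FPKM, none at 0 in all libraries. Summed erythroid markers were at 573 to 579 and 1013 to 1056 FPKM, with all 11 tested genes higher and the defining marker *Slc4a1* under 1 FPKM in all libraries. Summed megakaryocyte markers were at 78.3 to 83.4 and 158 to 162 FPKM, with all 7 tested genes higher and the defining marker *Gp6* under 1 FPKM. Summed mast cell and basophil markers were at 146 to 158 and 210 to 218 FPKM, with 6 of 9 tested genes higher. The part of these further lists was not tested either.

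Of 7 HSPC markers tested, 2 rose (*Flt3*, from 19.8 to 30.1 FPKM, and *Hlf*, from 3.73 to 5.16 FPKM) and 1 fell (*Kit*). The list summed to 335 to 342 FPKM in CTRL and 337 to 365 FPKM in cKO libraries. Of 6 macrophage markers tested 3 rose and 2 fell, and of 4 T and NK cell markers 2 rose and 1 fell. Macrophage markers summed to 30.1 to 32.1 and 33.8 to 35.3 FPKM, and T and NK cell markers to 366 to 377 and 328 to 331 FPKM. The lower T and NK cell sum is that of *Nkg7*, which fell from 353 ± 4.87 to 280 ± 2.97 FPKM, while *Trbc2* rose from 1.22 ± 0.182 to 6.13 ± 0.235 FPKM and *Ccl5* from 10.1 ± 1.62 to 35.5 ± 1.17 FPKM. *Cd3e*, *Cd3g* and *Ncr1*, which define T and NK cells, were under 1 FPKM in all libraries and were not tested. *Cd3g* was at 0.0495 ± 0.0297 FPKM in CTRL and 0.654 ± 0.127 FPKM in cKO libraries, and *Cd3e* is listed at 0 in all CTRL libraries and had 0.234 ± 0.0496 FPKM in cKO libraries. *Cd3d* was at 0.141 ± 0.123 and 1.45 ± 0.170 FPKM, also without overlap. Of 2 stromal and endothelial markers tested, *Pecam1* fell, and the list summed to 26.3 to 26.6 and 19.5 to 20.7 FPKM, with *Cdh5*, *Lepr* and *Col1a1* at or below 0.0913 FPKM.

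**Figure D4:**
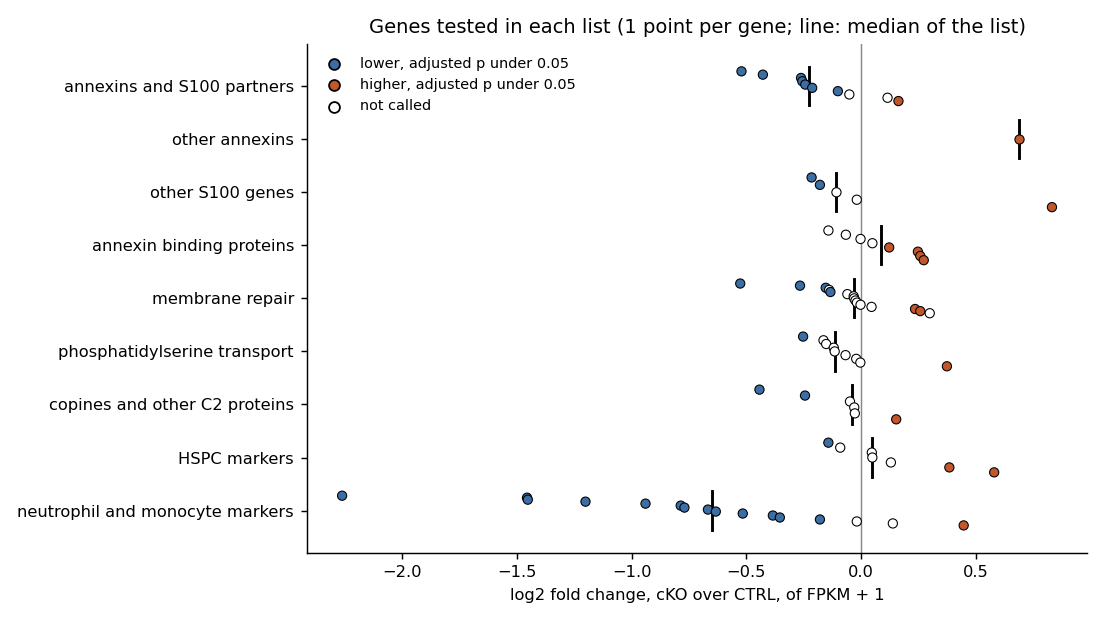
Log2 fold change of FPKM + 1, *Myh9*-deficient over control, of each gene tested in the members and in lists of related genes and markers (1 point a gene, black line for the list's median). The members' median is -0.23, that of annexin binding proteins 0.085, and that of neutrophil and monocyte markers -0.65.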

How the data were processed

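RNA of 6 LSK libraries (3 CTRL, 3 cKO) was prepared with an Illumina TruSeq kit that does not mark strand. The authors deposited a table of FPKM in which each library is a column, beside the length of every gene. The submitters' processing notes name HISAT2 2.0.5 and mm10, and the counting program and annotation are not given in the sources used here. Groups came from the sample titles. Multiplying FPKM by length gave steps of equal size in every library, and all values came out as whole reads (within 0.05 of a read). Intervals from reads would cover counting error only.

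Genes averaging 1 FPKM or more were tested on log2(FPKM + 1) in all 6 libraries with limma 3.58.1 (lmFit, eBayes with a trend, two-sided, R 4.3.3), with Benjamini-Hochberg adjustment over 11552 genes and no covariate. A pseudocount of 1 understates changes of low genes. Ratios and sums were compared by an exact permutation test over samples (scipy 1.17.1, Python 3.11.15). The model was run on simulated data with 200 changed genes. How it behaves where as many genes are called as here, 4673 of 11552, was not tested. Single genes named are *Myh9*, the members, *S100a4*, *S100a6* and up to 3 genes a list in each direction among those called. *S100a8*, *S100a13*, cell type markers, untested genes and overlapping or neighbouring genes were named outside this rule, after their values were seen. The members and lists were chosen with earlier results of these data known. Same-numbered libraries did not deviate together (r from -0.026 to -0.0046), so the numbers were not taken as pairs. Gene identifiers and coordinates are those deposited, and the 10 members have the same coordinates in GENCODE M21. Alternatives were other pseudocounts, filters, scalings and moderation, a replicate block and leaving out each library. A further marker list is not reported here.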

Additional observations from a re-analysis of the deposited data

How the results depend on the processing

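*Anxa1*, *Anxa2*, *Anxa3*, *Anxa5*, *Anxa6* and *S100a10* kept their direction and call in all 17 alternatives, with log2 fold changes of -0.26 to -0.19, -0.28 to -0.22, -0.56 to -0.50, -0.31 to -0.22, -0.46 to -0.41 and -0.35 to -0.23. *S100a11* lost its call in 11 of 17, with log2 fold changes of -0.22 to -0.068, and *Anxa4* in 8 of 16 (0.13 to 0.21). *Myh9* kept its call in all 17 (-0.31 to -0.16). Filters, moderation, the replicate block and the median of ratios leave a fold change as it was, so direction could not change under them. The number of members called higher, 1 as reported, was 0 without a filter on low values, with a mean of at least 5 FPKM (where *Anxa4* is not tested), with TPM and with the replicate block, 0 to 1 when 1 library was left out, and 2 with voom on the recovered reads and with GC and length trends removed. Those last 2 alternatives were chosen after seeing the data, and *Anxa7* passed in both (log2 fold changes of 0.14 and 0.18, adjusted p = 0.0113 and 0.0167, limma). At more than 2-fold with an unadjusted p under 0.05, 246 genes and 0 members were called, since no member changes by 2-fold. *Anxa11* ran from -0.12 to 0.020 when 1 library was left out, the positive value being without CTRL replicate 2. The difference between groups in log2 ratio of *S100a10* to *Anxa2* turned to -0.0055 with a pseudocount of 1. That difference ran from -0.022 to 0.028 when 1 library was left out, all within its standard error of 0.040. With the replicate block 6 members were called, and 2063 genes were higher and 2044 lower against 2295 and 2378. The replicate numbers share no pairing. A balanced block cannot move a mean difference, so the differences in log2 ratio stayed at 0.00018 (*S100a10* to *Anxa2*) and 0.12 (*S100a11* to *Anxa1*). For the latter the exact sign-flip test of the block gave p = 0.5, against p = 0.2 by permutation over samples. The sign-flip test cannot go below p = 0.25, which the annexin sum gave (an exact test, n = 3). Scaling by the median of ratios gave factors of 1 for all libraries, so it changed nothing. A quasi-likelihood count test was planned and not run, because the deposited values are FPKM, and voom on the recovered reads was run instead. With 355 to 507 reads, *Anxa4* and *Anxa11* are the least precisely counted members.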

Other observations

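The ratios of a pair of members that fell more to a pair that fell less are given as a description only, since they were chosen after those values were seen, which fixes their direction. The ratio of *S100a10* to *S100a11*, neighbours on chromosome 3, was 0.698, 0.662 and 0.676 in CTRL and 0.595, 0.595 and 0.629 in cKO libraries. The difference in log2 ratio was -0.16. The ratio of *Anxa3* to *Anxa5* was 0.719, 0.752 and 0.703 in CTRL and 0.594, 0.557 and 0.631 in cKO libraries, with a difference in log2 ratio of -0.29. The gene *1810062G17Rik*, read away from *Anxa5* and also chosen after its values were seen, was at 0.110, 0.0623 and 0.114 FPKM in CTRL and at 0.527, 0.482 and 0.767 FPKM in cKO libraries, where *Anxa5* was lower. It lies under the mean of 1 FPKM and was not tested.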
